A study of Mus musculus with 12 samples.

Results

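The collagen chains measured in stromal cells of the mouse thymus were all genes of the deposited table whose symbol is Col, a number, the letter a and a second number. There were 44 such genes among 23306 symbols: 11 fibrillar chains, 6 basement membrane chains of collagen IV and 27 chains of other classes. The cells came, in every group, from C57 BL6 KitL-tomato reporter mice, in which tomato marks expression of Kit ligand, and were sorted as living, lineage-negative cells. Tomato+ VEC and tomato- VEC were EpCAM- CD31+ vascular endothelial cells with and without the reporter signal. Tomato+ cTEC were EpCAM+ CD31- UEA1- Ly51+ epithelial cells of the thymic cortex that carried the signal, and tomato- mTEC were EpCAM+ CD31- UEA1+ Ly51- epithelial cells of the medulla that lacked it. Each group had 3 libraries, and total counts per library were 8388869 to 11807130. In the comparison of tomato+ cTEC with tomato- mTEC reporter signal and region (cortex or medulla) change together and cannot be told apart. No label states that the 3 libraries of a group are from different animals, and the p-values therefore measure only the spread between libraries, which may be technical.

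Collagens are triple helices of 3 chains that fold in the endoplasmic reticulum and are secreted. Fibrillar collagens assemble into the banded fibres of connective tissue, chiefly in fibroblasts. Collagen IV forms the sheet-like network of basement membranes, which lie under endothelium and epithelium alike: its α1 and α2 chains are found in nearly all basement membranes, and the α3 to α6 chains in restricted ones. Collagens XV and XVIII, the multiplexins, sit at the border of basement membranes, collagen VI forms beaded filaments beside them, and collagen VII anchors epithelium to the stroma beneath. The thymic cortex and medulla are built by epithelial cells, and thymic vessels have an endothelial basement membrane with an epithelial one facing it.

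The sorted cells carried the endothelial or epithelial markers that go with their CD31 and EpCAM gates. The marker sums do not check the UEA1 and Ly51 gates. Summed over 7 endothelial markers, the TMM-normalised read counts (CPM, scaled to library size) were 8545 to 9197 in tomato+ VEC and 8597 to 11422 in tomato- VEC, against 2.25 to 367 in tomato+ cTEC and 25.9 to 65.2 in tomato- mTEC. The highest of the cTEC values belonged to replicate 2, in which Pecam1, the gene of CD31, was at 108 CPM. Over 7 epithelial markers the sums were 0.785 to 1.82 CPM in tomato+ VEC, 0.779 to 1.49 in tomato- VEC, 3763 to 4552 in tomato+ cTEC and 3509 to 4199 in tomato- mTEC. Summed over 7 leukocyte markers no library passed 41.9 CPM. Kitl, the gene of Kit ligand, was at 809, 1546 and 775 CPM in tomato+ VEC and 393, 472 and 450 CPM in tomato- VEC. It was at 182, 234 and 250 CPM in tomato+ cTEC and 35.5, 4.53 and 26.1 CPM in tomato- mTEC. Tomato- VEC were thus not free of Kitl reads, and held more of them than tomato+ cTEC. In sorted bulk samples, fewer cells of a type and less RNA per cell cannot be told apart. The kit and counting are not described as stranded in the sources used here, so reads of a chain and of an overlapping antisense gene cannot be told apart. No collagen chain shared all its counts with another symbol.

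The endothelial groups carried more collagen message than the epithelial groups, and most of it came from Col4a1, Col4a2 and Col15a1. Summed per length, as length- and depth-normalised read counts (RPKM), the 44 chains came to 451 to 479.8 in tomato+ VEC and 391 to 499 in tomato- VEC, against 183 to 231 in tomato+ cTEC and 163 to 209.9 in tomato- mTEC. No endothelial library fell as low as any epithelial one. Collagen IV made up 84.6 to 90.3% of this sum in tomato+ VEC, 74.3 to 80.5% in tomato- VEC, 31.9 to 33.4% in tomato+ cTEC and 16.9 to 21.3% in tomato- mTEC. Col15a1 added 6.32 to 9.98% in tomato+ VEC and 16.1 to 24.4% in tomato- VEC, against 0 to 0.305% in tomato+ cTEC and 0.0756 to 0.139% in tomato- mTEC. Collagen VI ran the other way between endothelium and epithelium, with 0.0824 to 0.118% in tomato+ VEC, 0.0844 to 0.375% in tomato- VEC, 18.1 to 25% in tomato+ cTEC and 50.1 to 59.2% in tomato- mTEC. Fibrillar chains held 0.217 to 0.922% in tomato+ VEC and 0.135 to 1.69% in tomato- VEC, against 8.94 to 15.8% in tomato+ cTEC and 7.41 to 13.5% in tomato- mTEC. More kinds of chain reached 1 RPKM in the epithelial groups. There were 5 to 7 in a tomato+ VEC library and 4 to 8 in a tomato- VEC library, against 17 to 19 in a tomato+ cTEC library and 18 to 19 in a tomato- mTEC library. Epithelial libraries also held more genes of any kind: 15086 to 17015 genes had a count in a TEC library, against 13406 to 14346 in a VEC library.

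**Figure D1:**
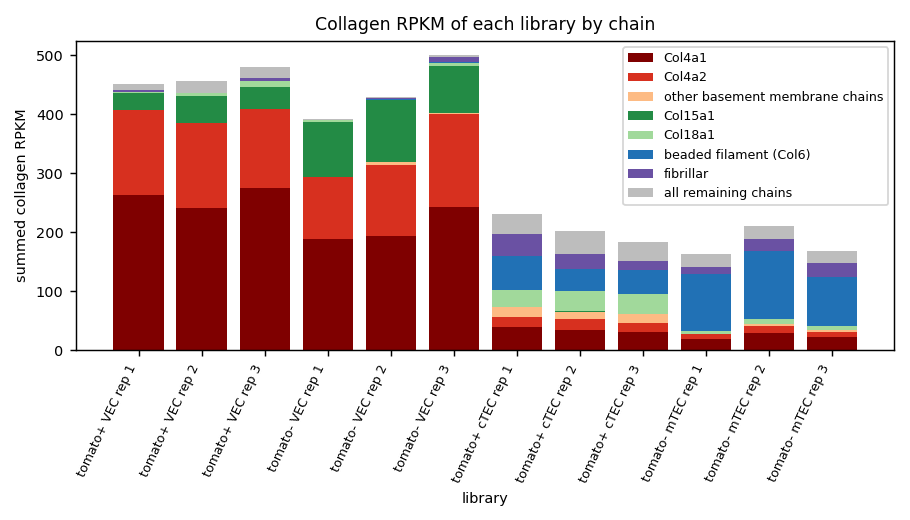
Stacked bars of summed collagen RPKM in each of the 12 libraries (3 per group), split by chain or class. Col4a1, Col4a2 and Col15a1 fill most of the 6 endothelial bars, and collagen VI is the widest block in the 3 tomato- mTEC bars.

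Ordered by level per length, the leading chains of tomato+ VEC were Col4a1 at 259 ± 17.3 RPKM (mean ± SD, n = 3), Col4a2 at 141 ± 6.10 RPKM and Col15a1 at 37.4 ± 8.51 RPKM, with no overlap of the libraries between neighbours. Tomato- VEC had the same 3 chains in front, Col4a1 at 208 ± 29.8 RPKM, Col4a2 at 128 ± 27.9 RPKM and Col15a1 at 93.1 ± 12.3 RPKM, and there the libraries of Col4a2 and Col15a1 overlapped. In tomato+ cTEC, Col6a1 at 37.8 ± 10.3 RPKM, Col4a1 at 34.7 ± 4.42 RPKM and Col18a1 at 31.9 ± 3.58 RPKM overlapped one another, and Col18a1 did not overlap the next chain, Col4a2. Tomato- mTEC were led by Col6a1 at 70.8 ± 10.4 RPKM, followed by Col6a2 at 23.6 ± 5.37 RPKM and Col4a1 at 23.3 ± 4.88 RPKM, the last pair overlapping.

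**Figure D2:**
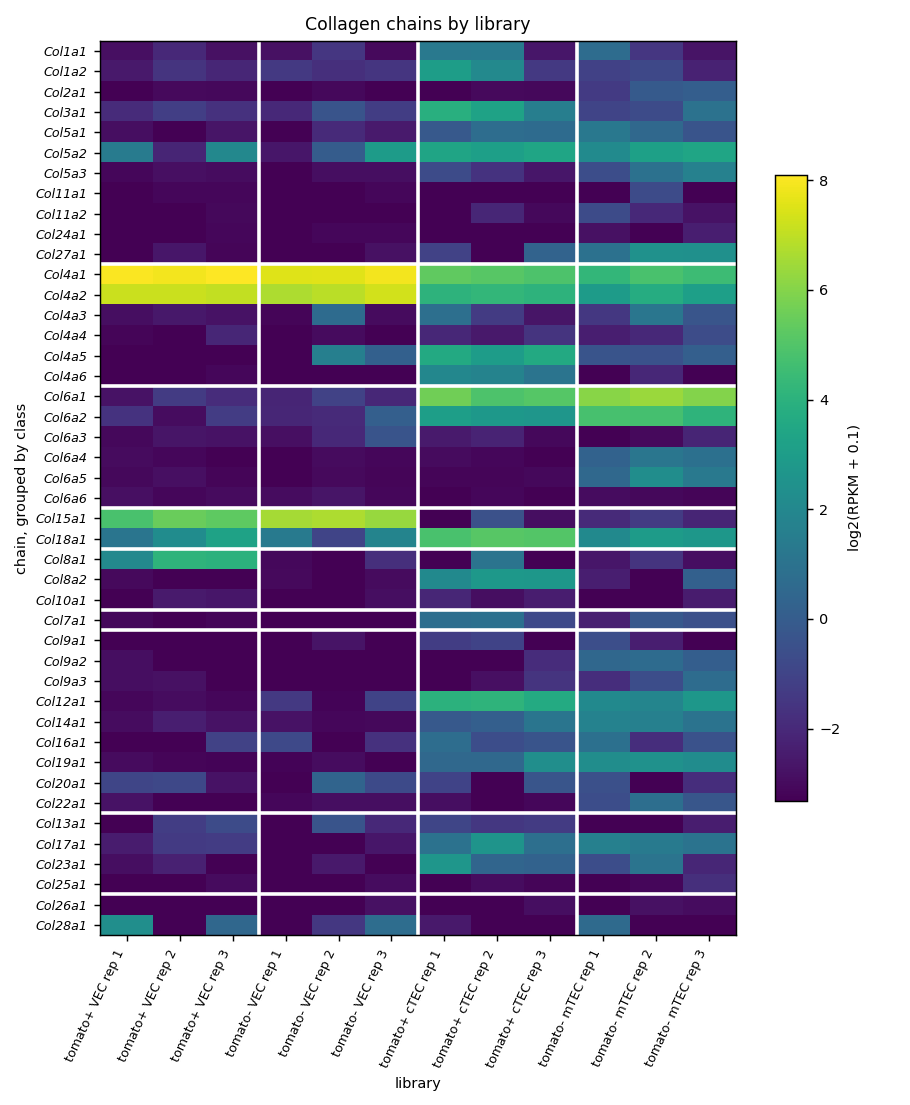
Heat map of log2(RPKM + 0.1) for all 44 chains (rows, grouped by class with white lines) in the 12 libraries (columns, grouped by population). The rows of Col4a1, Col4a2 and Col15a1 are brightest in the 6 VEC libraries, and those of Col5a1, Col5a3, Col6a1 and Col6a2 are brighter in the 6 TEC libraries.

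After the filter on low counts, 36 of the 44 chains were tested with edgeR, with adjustment over all 14792 genes tested and a call at an adjusted p under 0.05. A chain could pass the filter through the single group in which it is high, so counts over the 36 describe them and are no support for a difference. The 8 chains that did not pass, Col6a6, Col9a3, Col10a1, Col11a1, Col11a2, Col24a1, Col25a1 and Col26a1, reached at most 4.17 CPM in any library. Between tomato+ VEC and tomato+ cTEC, 18 of 36 chains (50%) were called, 3 higher and 15 lower in tomato+ VEC, against 21.9% of all tested genes (9.45% higher, 12.4% lower). The median fitted log2 fold change was -3.15 over the 36 chains, or -2.82 with 6 chains set to the bound or ratio that a count of 3 or fewer allows, and -0.11 over all genes. Between the mean of both VEC groups and the mean of both TEC groups, 25 chains (69.4%) were called, 3 higher and 22 lower in VEC, against 36.3% of all genes (14.4% higher, 21.8% lower). Their median fitted log2 fold change was -3.18, or -3.29 with bounds, against -0.18 over all genes. Relative log expression scaling moved the median of all genes in this comparison by -0.13 on the log2 scale.

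Within the epithelium, 4 of 36 chains (11.1%) were called between tomato+ cTEC and tomato- mTEC, all lower in tomato+ cTEC, against 7.83% of all genes (2.73% higher, 5.1% lower). The median log2 fold change was 0.15 over the chains and 0.02 over all genes. Other fits also called chains higher in tomato+ cTEC: DESeq2 called 5 higher and 4 lower, limma voom 5 and 8, edgeR on the 6 epithelial libraries alone 5 and 6, and limma-trend 7 and 8. These fits also called more of all genes than the main fit. In the same order they called 679 genes higher and 1294 lower, 697 and 1522, 971 and 1516, and 949 and 1581. Between tomato+ VEC and tomato- VEC, edgeR called 0 of 36 chains, against 1.65% of all genes (0.568% higher, 1.08% lower). At an unadjusted p under 0.05 there were 4 chains, and how many of all genes had such a p was not counted. DESeq2 called 4 chains, limma voom 3 and limma-trend 1. Of the 14792 genes, these fits called 1253, 601 and 473, against 244 in the main fit. The median log2 fold change was 0.04 over the chains and 0.00 over all genes. The difference between the VEC contrast and the TEC contrast was called in 3 of 36 chains (8.33%), higher in Col6a5 and lower in Col4a5 and Col12a1, against 3.08% of all genes, 1.54% in each direction. These comparisons share libraries, so their values are given side by side and not counted together.

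**Figure D3:**
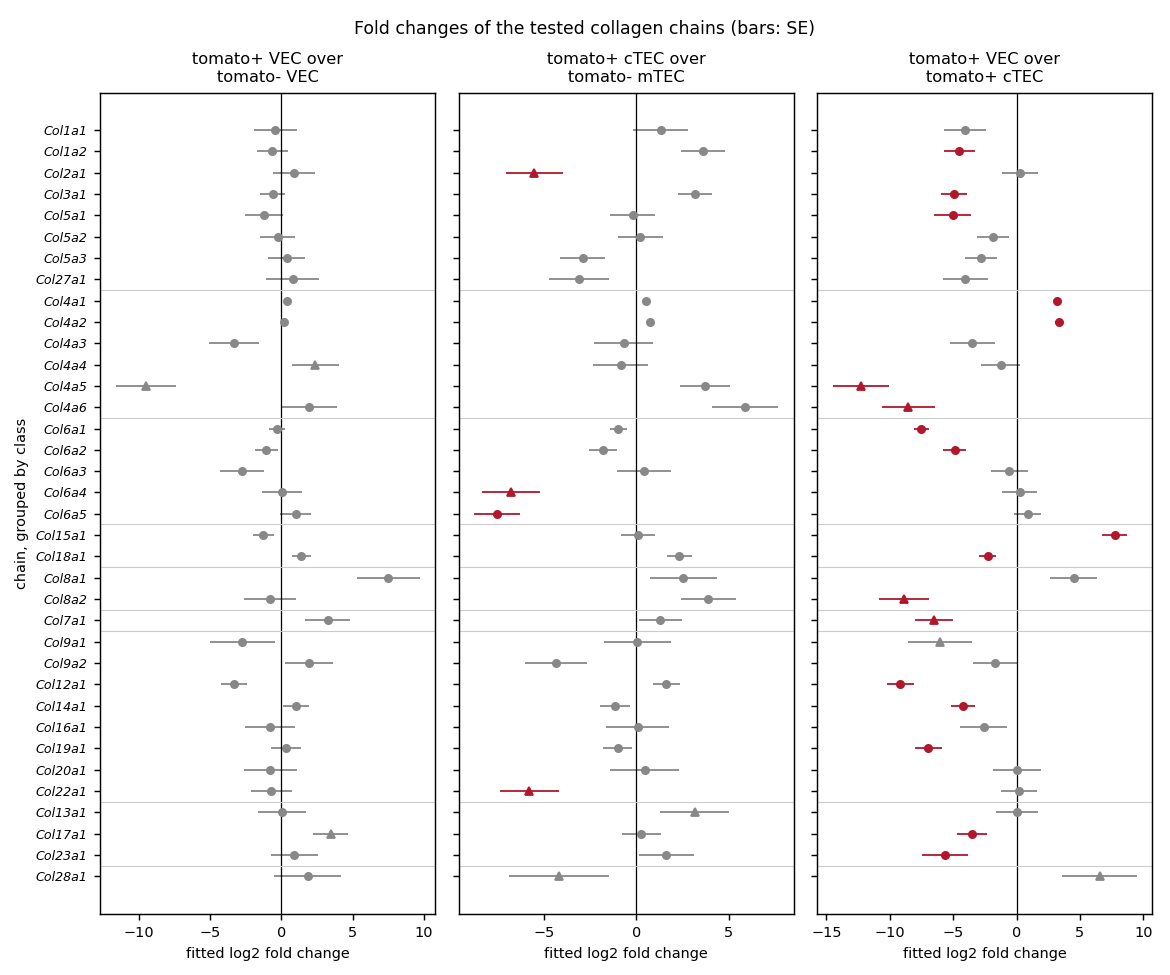
Fitted log2 fold change (horizontal axis, bars are SE) of the 36 tested chains in 3 comparisons, each named above its panel. Red marks are called at an edgeR adjusted p under 0.05 and grey marks are not. Triangles are chains with 3 counts or fewer in a group and clearly more in the other, whose fitted fold depends on the prior count. Chains with few counts in both groups are drawn as circles, and their fitted fold depends on the prior count as well. No mark is red in the left panel, 4 are in the middle panel and 18 in the right panel.

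Collagen IV split by chain. Col4a1 and Col4a2, which assemble as 2 α1 chains with 1 α2 chain, were several-fold higher in endothelium, while Col4a5 and Col4a6 were found mainly in cortical epithelium. Col4a1 was at 1950.4, 1755 and 1992 CPM in tomato+ VEC and 1363, 1363 and 1631 CPM in tomato- VEC. In tomato+ cTEC it was at 231, 207 and 183 CPM and in tomato- mTEC at 116, 184 and 141 CPM. The endothelial and epithelial libraries did not overlap. Col4a1 was higher in tomato+ VEC, set against tomato+ cTEC (edgeR adjusted p = 1.65e-06, log2 fold change 3.20, SE 0.21) and higher in VEC than in TEC (edgeR adjusted p = 2.53e-08, log2 fold change 3.25, SE 0.15). Between the VEC groups the tomato+ libraries were all above the tomato- ones, and the log2 difference of 0.39 was not called (edgeR adjusted p = 0.369), while limma voom called it (adjusted p = 0.0410).

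Col4a2 was at 1039, 1028 and 946 CPM in tomato+ VEC and 736, 834 and 1042 CPM in tomato- VEC, against 96.7, 108 and 97.1 CPM in tomato+ cTEC and 45.5, 82.4 and 53.1 CPM in tomato- mTEC. Col4a2 was higher in tomato+ VEC, set against tomato+ cTEC (edgeR adjusted p = 4.1e-06, log2 fold change 3.32, SE 0.25) and higher in VEC than in TEC (edgeR adjusted p = 5e-08, log2 fold change 3.59, SE 0.18). Tomato+ cTEC libraries all lay above tomato- mTEC libraries, and edgeR did not call that difference (edgeR adjusted p = 0.0780, log2 fold change 0.74, SE 0.23) with all 12 libraries. It was called by limma-trend (adjusted p = 0.0487) and by edgeR without tomato- mTEC replicate 2 (edgeR adjusted p of 0.0335 to 0.274 over the 12 leave-outs). Per length, the ratio of Col4a1 to Col4a2 was 1.66 to 2.04 in tomato+ VEC, 1.52 to 1.80 in tomato- VEC, 1.83 to 2.32 in tomato+ cTEC and 2.17 to 2.58 in tomato- mTEC. Col4a1 was thus above Col4a2 per length in all 12 libraries, and every tomato- mTEC ratio lay above every VEC ratio.

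Col4a1 and Col4a2 lie head to head on chromosome 8, and their start sites in RefSeq are 21 bases apart. The start of Col4a1, on the minus strand, has the higher coordinate, so the genes overlap at their starts. The bases before each start thus lie within the other gene, and the counts below include transcribed sequence of that gene. The promoter windows, 250 bases before to 50 bases after the start, are shown because both genes were called higher in VEC. They come from RefSeq on GRCm38.p6, a later build than the mm9 named for the files: Col4a1 is chr8:11312777-11313076 on the minus strand and Col4a2 is chr8:11312555-11312854 on the plus strand. Capitals mark the 78 bases that both windows cover, read from opposite strands.
Col4a1: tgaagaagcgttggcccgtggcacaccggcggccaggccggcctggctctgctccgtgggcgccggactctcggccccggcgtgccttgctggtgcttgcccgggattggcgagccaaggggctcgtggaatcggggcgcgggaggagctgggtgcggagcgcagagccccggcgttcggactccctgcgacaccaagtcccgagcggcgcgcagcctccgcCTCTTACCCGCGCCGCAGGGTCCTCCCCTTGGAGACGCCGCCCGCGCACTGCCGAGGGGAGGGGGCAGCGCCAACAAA
Col4a2: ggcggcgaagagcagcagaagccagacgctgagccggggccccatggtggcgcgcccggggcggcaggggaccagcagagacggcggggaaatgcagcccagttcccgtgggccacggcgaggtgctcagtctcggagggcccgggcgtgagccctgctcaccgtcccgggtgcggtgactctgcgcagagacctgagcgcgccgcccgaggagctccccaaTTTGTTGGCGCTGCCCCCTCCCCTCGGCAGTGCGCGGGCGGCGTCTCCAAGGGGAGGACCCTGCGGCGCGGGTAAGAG
The Col4a1 window holds 37 CpG dinucleotides at 74.0% GC, and the Col4a2 window 33 at 73.7%. The median over the 32851 mouse promoters of the table is 7 CpG at 52.7% GC. At most the Col4a1 count is found in 95% of promoters and at most the Col4a2 count in 92.3%. On both strands the motif CCAAT occurs 1 time in each window, and GGGCGG 1 time in the Col4a1 window and 3 times in the Col4a2 window. The Col4a1 match of GGGCGG and 1 of the Col4a2 matches lie in the shared bases, and no matches of the motifs overlap within a window. Of all promoters, 37.4% hold CCAAT, 35.7% hold GGGCGG and 13.6% hold TATAAA, which is in neither window. Promoters were matched for 35 of the 44 chains.

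Col4a5 and Col4a6 encode the α5 and α6 chains and are a neighbouring pair as well, on chromosome X with starts 1343 bases apart. Col4a5 was at 0 in all 3 tomato+ VEC libraries and at 0, 20.7 and 6.95 CPM in tomato- VEC. It was at 70.7, 45.3 and 71.8 CPM in tomato+ cTEC and 4.15, 4.07 and 6.17 CPM in tomato- mTEC. Against the floor of 3 counts over the group, Col4a5 was at least 559.9-fold lower in tomato+ VEC than in tomato+ cTEC (edgeR adjusted p = 0.00320). Bounds and intervals of this kind cover counting error only. The higher level of tomato+ cTEC than of tomato- mTEC, without overlap, was not called (edgeR adjusted p = 0.148, log2 fold change 3.70, SE 1.37) with all 12 libraries. It was called by DESeq2, limma voom, edgeR on the 6 libraries compared alone and limma-trend (lowest adjusted p = 0.000951), and by edgeR without tomato- VEC replicate 1 (edgeR adjusted p of 0.0135 to 0.354 over the 12 leave-outs). Between the VEC groups the libraries overlapped and the difference was not called (edgeR adjusted p = 0.0597), but DESeq2 called it (adjusted p = 2.48e-05), as did edgeR without the low-count filter (adjusted p = 0.0301) and without tomato- VEC replicate 1 (edgeR adjusted p of 0.00298 to 0.110 over the 12 leave-outs).

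Col4a6 was at 0, 0 and 0.107 CPM in tomato+ VEC and at 0 in tomato- VEC. Tomato+ cTEC had 22.8, 20.2 and 12.1 CPM and tomato- mTEC 0, 0.930 and 0 CPM. With 1 count in tomato+ VEC, it was 485-fold lower there relative to tomato+ cTEC (edgeR adjusted p = 0.0156, with 95% counting bounds of 86.7 and 19177 for the ratio). Its difference between tomato+ cTEC and tomato- mTEC was not called with all 12 libraries (edgeR adjusted p = 0.0799, log2 fold change 5.89, SE 1.80). It was called by DESeq2, limma voom, edgeR on the 6 libraries compared alone and limma-trend (lowest adjusted p = 6.46e-05), and by edgeR without tomato- mTEC replicate 2 (edgeR adjusted p of 0.0412 to 0.206 over the 12 leave-outs). Col4a3, of the α3 chain, was patchy: single libraries of tomato- VEC, tomato+ cTEC and tomato- mTEC held 13.9, 13.3 and 17.8 CPM, and the others of those groups stayed at or below 5.85 CPM. Col4a4, its neighbour gene for the α4 chain, did not pass 3.85 CPM in any library.

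**Figure D4:**
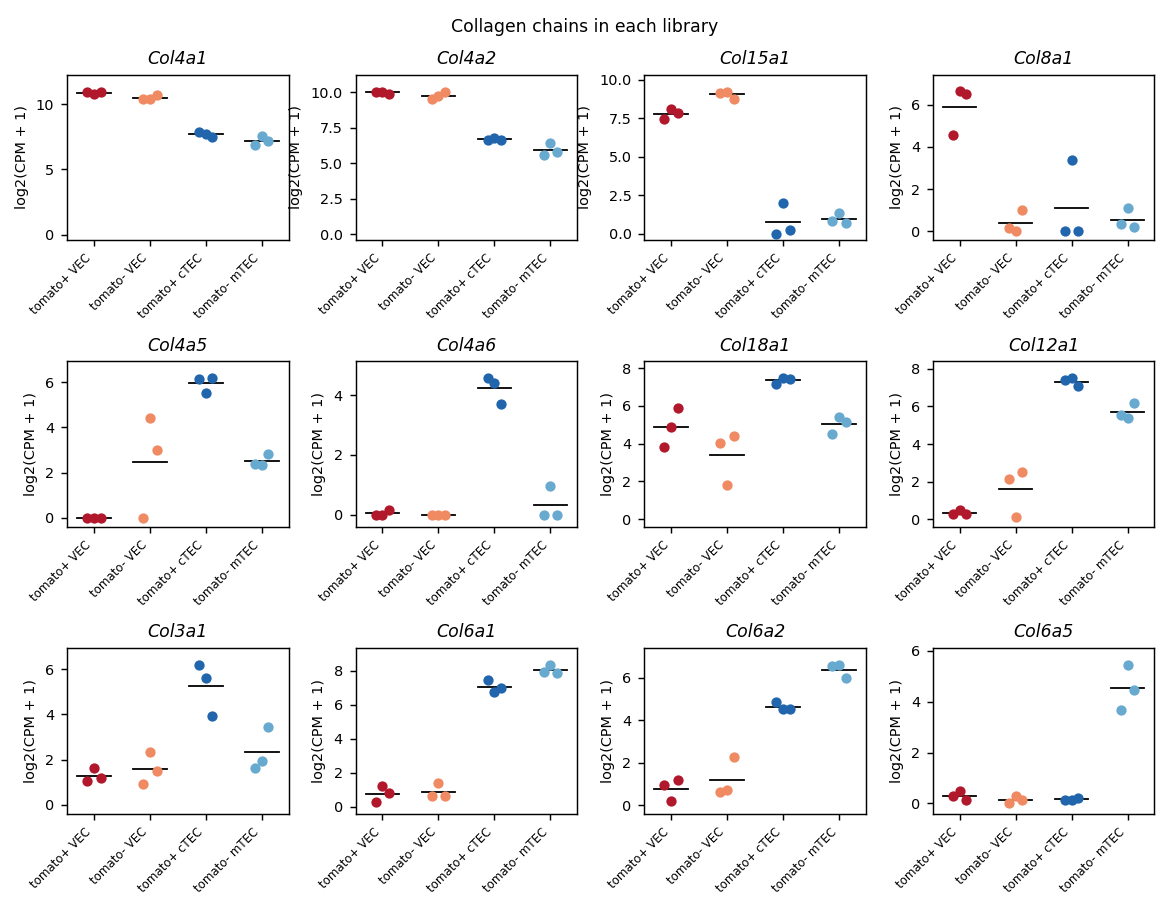
Level of 12 chains on a log2(CPM + 1) scale in each library, with 3 points per group and a line at the mean. Col4a1, Col4a2 and Col15a1 are highest in the VEC groups, Col8a1 in tomato+ VEC, Col4a5, Col4a6, Col18a1, Col12a1 and Col3a1 in tomato+ cTEC, and Col6a1, Col6a2 and Col6a5 in tomato- mTEC.

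The multiplexins divided between endothelium and epithelium. Col15a1, the chain of collagen XV, was at 169.8, 267 and 224 CPM in tomato+ VEC and 551, 595 and 435 CPM in tomato- VEC. In tomato+ cTEC it was at 0, 2.94 and 0.173 CPM and in tomato- mTEC at 0.771, 1.51 and 0.641 CPM. Col15a1 was higher in tomato+ VEC, set against tomato+ cTEC (edgeR adjusted p = 0.00019, log2 fold change 7.74, SE 1.00) and higher in VEC than in TEC (edgeR adjusted p = 3.44e-06, log2 fold change 8.42, SE 0.73). The highest cTEC value, in replicate 2, goes with the 108 CPM of Pecam1 in that library, whose part was not tested. All 3 tomato+ VEC libraries lay below all 3 tomato- VEC libraries, and edgeR did not call that difference (edgeR adjusted p = 0.435, log2 fold change -1.26, SE 0.73). limma voom called it (adjusted p = 0.0129).

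Col18a1, whose C-terminal fragment is endostatin, was at 13.0, 28.8 and 59.0 CPM in tomato+ VEC and 15.5, 2.44 and 20.1 CPM in tomato- VEC. Tomato+ cTEC held 140.2, 175 and 172 CPM, above every other library, and tomato- mTEC 21.8, 41.3 and 34.5 CPM. The gene was lower in tomato+ VEC, set against tomato+ cTEC (edgeR adjusted p = 0.0331, log2 fold change -2.27, SE 0.69). That call failed without tomato+ VEC replicates 1 or 2, or without tomato+ cTEC replicates 1, 2 or 3 (edgeR adjusted p of 0.00898 to 0.0934 over the 12 leave-outs). The difference of tomato+ cTEC from tomato- mTEC was not called (edgeR adjusted p = 0.0609, log2 fold change 2.32, SE 0.69). It was called by DESeq2, limma voom, edgeR on the 6 libraries compared alone and limma-trend (lowest adjusted p = 0.00163), and by edgeR without tomato+ VEC replicates 1 or 3, or without tomato- VEC replicate 2 (edgeR adjusted p of 0.0212 to 0.207 over the 12 leave-outs).

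Col8a1 and Col8a2, the chains of the short-network collagen VIII, were found in different cells. Col8a1 was at 22.9, 98.0 and 90.4 CPM in tomato+ VEC, against 0.111, 0 and 1.01 CPM in tomato- VEC. Tomato+ cTEC had 0, 9.31 and 0 CPM and tomato- mTEC 0.289, 1.16 and 0.160 CPM, the cTEC value above 0 again in the library with 108 CPM of Pecam1. Every tomato+ VEC library was above every other library, yet edgeR called the difference neither from tomato- VEC (edgeR adjusted p = 0.116, log2 fold change 7.52, SE 2.20) nor from tomato+ cTEC (edgeR adjusted p = 0.112, log2 fold change 4.50, SE 1.88). Between the VEC groups, DESeq2 (adjusted p = 0.00100), limma voom (adjusted p = 0.0129) and limma-trend (adjusted p = 0.00350) called it. edgeR called it without tomato+ cTEC replicate 2 (edgeR adjusted p of 0.0355 to 0.250 over the 12 leave-outs), the library with Pecam1, and without that library also called the difference from tomato+ cTEC (edgeR adjusted p = 0.00430), which DESeq2, limma voom and limma-trend called with all 12 (lowest adjusted p = 0.00108). Col8a2 was at 16.4, 26.5 and 25.7 CPM in tomato+ cTEC and 0.386, 0 and 4.17 CPM in tomato- mTEC, and no VEC library passed 0.112 CPM. With 1 count over tomato+ VEC, it was 608-fold lower there relative to tomato+ cTEC (edgeR adjusted p = 0.00696, with 95% counting bounds of 109 and 24035 for the ratio). Its level in tomato+ cTEC was above that in tomato- mTEC without overlap, a difference that edgeR did not call (edgeR adjusted p = 0.153, log2 fold change 3.89, SE 1.5) and limma voom and limma-trend did (lowest adjusted p = 0.000139).

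Col6a1 and Col6a2 of collagen VI were found mainly in epithelium, and Col6a3 was low in all 4 groups. Col6a1, of the α1(VI) chain that every collagen VI molecule contains, was at 0.208, 1.31 and 0.750 CPM in tomato+ VEC and 0.557, 1.59 and 0.560 CPM in tomato- VEC. It was at 176, 106 and 125 CPM in tomato+ cTEC and 248, 320.2 and 236 CPM in tomato- mTEC. Col6a1 was lower in tomato+ VEC, set against tomato+ cTEC (edgeR adjusted p = 7.4e-06, log2 fold change -7.50, SE 0.62) and lower in VEC than in TEC (edgeR adjusted p = 1.2e-07, log2 fold change -7.84, SE 0.44). Tomato- mTEC libraries lay above tomato+ cTEC libraries without overlap, and the difference was not called (edgeR adjusted p = 0.242, log2 fold change -0.98, SE 0.45) except by limma voom and edgeR on the 6 libraries compared alone (lowest adjusted p = 0.00944).

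Col6a2, of the partner α2(VI) chain, was at 0.935, 0.131 and 1.29 CPM in tomato+ VEC and 0.557, 0.637 and 3.81 CPM in tomato- VEC, against 27.7, 22.3 and 21.6 CPM in tomato+ cTEC and 93.9, 95.5 and 61.3 CPM in tomato- mTEC. Col6a2 was lower in tomato+ VEC, set against tomato+ cTEC (edgeR adjusted p = 0.00236, log2 fold change -4.89, SE 0.91) and lower in VEC than in TEC (edgeR adjusted p = 5.82e-05, log2 fold change -5.26, SE 0.65). The tomato+ cTEC libraries were below the tomato- mTEC libraries, which edgeR did not call with all 12 libraries (edgeR adjusted p = 0.209, log2 fold change -1.81, SE 0.78). It was called by limma voom, edgeR on the 6 libraries compared alone and limma-trend (lowest adjusted p = 0.00391). Per length, Col6a1 exceeded Col6a2 by a ratio of 4.44 to 5.95 in tomato+ cTEC and 2.48 to 3.62 in tomato- mTEC. Col6a3, of the α3(VI) chain of the usual assembly, was at 0.208, 0.654 and 0.536 CPM in tomato+ VEC and 0.445, 1.70 and 7.62 CPM in tomato- VEC, against 0.734, 1.18 and 0.173 CPM in tomato+ cTEC and 0, 0.233 and 1.28 CPM in tomato- mTEC. Its difference between VEC and TEC was not called (edgeR adjusted p = 0.495, log2 fold change 1.04, SE 1.05).

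The chains that can take the place of α3(VI) were seen in tomato- mTEC. Col6a5 was at 0.0917, 0.0980 and 0.173 CPM in tomato+ cTEC, against 11.6, 42.4 and 20.9 CPM in tomato- mTEC, and at or below 0.392 CPM in the VEC libraries. The gene was lower in tomato+ cTEC, set against tomato- mTEC (edgeR adjusted p = 0.00447, log2 fold change -7.54, SE 1.25), in 3 of 3 libraries of each group without overlap and under every alternative run. Col6a4 was at 0.183, 0.0980 and 0 CPM in tomato+ cTEC, against 7.62, 15.6 and 12.2 CPM in tomato- mTEC, and at or below 0.212 CPM in the VEC libraries. With 3 counts over tomato+ cTEC, it was 126-fold lower there (edgeR adjusted p = 0.0219, with 95% counting bounds of 42.9 and 616 for the ratio). This call failed without tomato+ cTEC replicates 1, 2 or 3, or without tomato- mTEC replicates 1, 2 or 3 (edgeR adjusted p of 0.0174 to 0.0809 over the 12 leave-outs). Col6a6, the neighbour of Col6a5, did not pass 0.425 CPM. Of 9 markers of pericytes and smooth muscle, cells known to make collagen VI, 3 to 6 passed 1 CPM in a tomato+ cTEC library and 6 to 8 in a tomato- mTEC library. In the VEC libraries 3 or 4 passed it. The 9 markers summed to 33.7 to 36.1 CPM in tomato+ VEC and 32.4 to 45.2 in tomato- VEC. The sums were 129.8 to 403 CPM in tomato+ cTEC and 599 to 880.5 CPM in tomato- mTEC. Rgs5, Acta2 and Myh11 were the highest of them in tomato- mTEC, at 206 to 434, 225 to 361 and 105 to 110 CPM. Kcnj8 was at 0 in the TEC libraries, and Abcc9 reached 30.6 CPM in VEC and 11.1 CPM in TEC. The part of these markers in the collagen VI levels was not tested.

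Col6a4 and Col6a5 are neighbours on chromosome 9. Their promoter windows are shown because both genes were called between the epithelial groups, and capitals mark CpG dinucleotides. From RefSeq on GRCm38.p6, Col6a4 is chr9:106096642-106096941 and Col6a5 is chr9:105960594-105960893, both on the minus strand.
Col6a4: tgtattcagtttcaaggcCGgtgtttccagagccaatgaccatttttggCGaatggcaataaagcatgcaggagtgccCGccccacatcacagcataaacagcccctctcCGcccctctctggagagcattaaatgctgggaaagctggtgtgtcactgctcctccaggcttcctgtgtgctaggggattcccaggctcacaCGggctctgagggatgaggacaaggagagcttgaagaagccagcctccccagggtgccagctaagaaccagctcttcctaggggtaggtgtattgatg
Col6a5: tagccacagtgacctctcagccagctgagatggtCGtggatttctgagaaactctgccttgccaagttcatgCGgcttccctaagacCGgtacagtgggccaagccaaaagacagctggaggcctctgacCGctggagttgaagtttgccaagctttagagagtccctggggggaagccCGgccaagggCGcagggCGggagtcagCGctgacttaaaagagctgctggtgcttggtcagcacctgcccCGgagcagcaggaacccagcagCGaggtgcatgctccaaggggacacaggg
The Col6a4 window holds 5 CpG dinucleotides at 55.0% GC and the Col6a5 window 10 at 60.0%. Of all promoters, 43.6% hold no more CpG than Col6a4 and 58.6% no more than Col6a5. On both strands, CCAAT occurs 1 time in the Col6a4 window and 0 times in the Col6a5 window, and GGGCGG 2 times in the Col6a4 window and 1 time in the Col6a5 window, with no overlap between matches. TATAAA is in neither window. A match of such letters is a description and not a site of binding.

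The fibrillar chains were low in the VEC groups, apart from Col5a2, and several were higher in the TEC groups. In the TEC groups the highest mean of the class was that of Col5a2, at 57.8 CPM in tomato+ cTEC and 49.8 CPM in tomato- mTEC. In tomato+ VEC against tomato+ cTEC, 3 of 8 tested chains were called, all lower in tomato+ VEC, where 12.4% of all genes were called lower. Between VEC and TEC 6 of 8 were called, all lower in VEC, against 21.8% of all genes. The calls of Col1a1 and Col1a2 between VEC and TEC each failed with limma voom, limma-trend and edgeR without the low-count filter, and in 9 of the 12 leave-outs of 1 library. Col3a1, the single chain of collagen III, was at 1.04, 2.09 and 1.29 CPM in tomato+ VEC and 0.891, 4.04 and 1.79 CPM in tomato- VEC. Tomato+ cTEC had 72.1, 47.4 and 14.4 CPM and tomato- mTEC 2.12, 2.79 and 9.86 CPM. Col3a1 was lower in tomato+ VEC, set against tomato+ cTEC (edgeR adjusted p = 0.00441, log2 fold change -4.91, SE 1.01), and its difference between tomato+ cTEC and tomato- mTEC was not called by edgeR (edgeR adjusted p = 0.0579, log2 fold change 3.17, SE 0.93) with all 12 libraries. DESeq2, edgeR on the 6 libraries compared alone and limma-trend called it (lowest adjusted p = 0.00286). Col1a2 and Col1a1, the chains of collagen I, shared the high replicates 1 and 2 of tomato+ cTEC. Col1a2 was at 0.416, 1.31 and 0.750 CPM in tomato+ VEC and 1.56, 1.06 and 1.23 in tomato- VEC, against 36.9, 18.4 and 1.30 CPM in tomato+ cTEC and 1.74, 2.33 and 0.561 in tomato- mTEC. It was called lower in tomato+ VEC, set against tomato+ cTEC (edgeR adjusted p = 0.0208, log2 fold change -4.50, SE 1.23), with overlap. The call failed with limma voom and edgeR on the 6 libraries compared alone, and without tomato+ VEC replicates 1 or 3, or without tomato+ cTEC replicate 1 (edgeR adjusted p of 0.00862 to 0.0890 over the 12 leave-outs). Col1a1 was at 9.90, 10.2 and 0.260 CPM in tomato+ cTEC and 6.75, 1.16 and 0.240 CPM in tomato- mTEC, and at most 1.27 CPM in the VEC libraries. It was called between VEC and TEC (edgeR adjusted p = 0.0455, log2 fold change -3.18, SE 1.14), and that call failed without tomato+ VEC replicates 1, 2 or 3, or without tomato- VEC replicates 1 or 3, or without tomato+ cTEC replicates 1 or 2, or without tomato- mTEC replicates 1 or 2 (edgeR adjusted p of 0.0282 to 0.163 over the 12 leave-outs).

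Of 8 fibroblast markers, 5 passed 1 CPM in a tomato+ cTEC library and 4 to 6 in a tomato- mTEC library. Dcn, the proteoglycan decorin, was at 2057, 1976 and 1559 CPM in tomato+ cTEC and 237, 116 and 369.9 CPM in tomato- mTEC. Mfap5, a microfibril protein of fibroblasts, was at 34.8, 16.4 and 0 CPM in tomato+ cTEC and 108, 16 and 31.5 CPM in tomato- mTEC. The list without Dcn summed to 82.7 to 133 CPM in tomato+ VEC, 16.5 to 72.8 in tomato- VEC, 60.1 to 66.5 in tomato+ cTEC and 97.2 to 132 in tomato- mTEC, and Twist2 was at 0 in the TEC libraries. Col1a1, Col1a2 and Col3a1 were lowest in replicate 3 of tomato+ cTEC. Mfap5 was lowest there as well, whereas Lum, the proteoglycan lumican, was at 10.8, 5.10 and 26.8 CPM in tomato+ cTEC and highest in that replicate. The part of fibroblast RNA in these values was not tested.

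The minor fibrillar chains behaved less uniformly. Col5a1, of collagen V, was at 0.312, 0 and 0.536 CPM in tomato+ VEC and 0, 1.38 and 0.672 CPM in tomato- VEC, against 6.14, 11.9 and 11.5 CPM in tomato+ cTEC and 17.5, 10.9 and 5.37 CPM in tomato- mTEC. The gene was lower in tomato+ VEC, set against tomato+ cTEC (edgeR adjusted p = 0.0286, log2 fold change -5.04, SE 1.47), a call that failed without tomato+ VEC replicates 1 or 2, or without tomato+ cTEC replicates 2 or 3 (edgeR adjusted p of 0.0115 to 0.0689 over the 12 leave-outs). Col5a2, its usual partner and the gene next to Col3a1 on chromosome 1, ranged over 19.4, 0.915 and 28.2 CPM in tomato+ VEC and 0.445, 6.37 and 51.7 CPM in tomato- VEC. Tomato+ cTEC held 59.4, 50.7 and 63.4 CPM and tomato- mTEC 26.5, 57.1 and 65.7 CPM of Col5a2. edgeR called it in no comparison with all 12 libraries. In VEC against TEC it was called by limma voom and limma-trend (lowest adjusted p = 0.0137), and by edgeR without tomato- VEC replicate 3 (edgeR adjusted p of 0.0229 to 0.309 over the 12 leave-outs). Col5a3 was at 2.75, 1.18 and 0.346 CPM in tomato+ cTEC and 3.09, 10.7 and 18.3 CPM in tomato- mTEC, with at most 0.262 CPM in VEC, and was lower in VEC than in TEC (edgeR adjusted p = 0.00315, log2 fold change -4.44, SE 0.95). Its higher level in tomato- mTEC, without overlap, was called by limma-trend (adjusted p = 0.0298) and not by edgeR (edgeR adjusted p = 0.196).

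Col27a1, a fibrillar chain best known from cartilage, was at 2.57, 0 and 8.05 CPM in tomato+ cTEC and 12.9, 40.3 and 38.0 CPM in tomato- mTEC, against at most 0.523 CPM in VEC. Col27a1 was lower in VEC than in TEC (edgeR adjusted p = 0.00460, log2 fold change -6.00, SE 1.36). Its tomato- mTEC libraries lay above the tomato+ cTEC libraries without overlap, which edgeR did not call (edgeR adjusted p = 0.325). That difference was called by limma voom and limma-trend (lowest adjusted p = 0.00408). Col2a1, the cartilage collagen, was at 0, 0.0980 and 0.0866 CPM in tomato+ cTEC, against 1.35, 4.19 and 4.73 CPM in tomato- mTEC. With 2 counts over tomato+ cTEC, it was 56.6-fold lower there (edgeR adjusted p = 0.0469, with 95% counting bounds of 15.3 and 473 for the ratio). The call failed with edgeR without the low-count filter, and without tomato+ VEC replicates 2 or 3, or without tomato- VEC replicate 2, or without tomato+ cTEC replicates 1, 2 or 3, or without tomato- mTEC replicates 1, 2 or 3 (edgeR adjusted p of 0.0397 to 0.145 over the 12 leave-outs).

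Among the chains that decorate fibrils or join them to other structures (FACIT collagens and relatives), Col12a1 was the most abundant. It was at 0.208, 0.392 and 0.214 CPM in tomato+ VEC and 3.45, 0.106 and 4.71 CPM in tomato- VEC. Tomato+ cTEC held 166, 179.9 and 133 CPM and tomato- mTEC 45.1, 40.3 and 71.0 CPM, with no overlap between these groups. Col12a1 was lower in tomato+ VEC, set against tomato+ cTEC (edgeR adjusted p = 7.93e-05, log2 fold change -9.16, SE 1.05) and lower in VEC than in TEC (edgeR adjusted p = 1.03e-05, log2 fold change -6.70, SE 0.66). Between the VEC groups the libraries overlapped and edgeR did not call the difference (edgeR adjusted p = 0.0944). DESeq2 called it (adjusted p = 0.00718), as did edgeR without tomato- VEC replicate 2 (edgeR adjusted p of 0.00270 to 0.198 over the 12 leave-outs). The tomato+ cTEC and tomato- mTEC difference was not called (edgeR adjusted p = 0.227, log2 fold change 1.62, SE 0.72), and was called by limma voom, edgeR on the 6 libraries compared alone and limma-trend (lowest adjusted p = 0.00660), and by edgeR without tomato- VEC replicate 2 (edgeR adjusted p of 0.0206 to 0.464 over the 12 leave-outs).

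Col19a1, a chain of basement membrane zones, was at 12.8, 12.8 and 48.1 CPM in tomato+ cTEC and 47.0, 55.7 and 45.9 CPM in tomato- mTEC, against at most 0.319 CPM in VEC. The gene was lower in tomato+ VEC, set against tomato+ cTEC (edgeR adjusted p = 0.000564, log2 fold change -6.96, SE 1.04). Col14a1 was at 4.68, 5.68 and 12.0 CPM in tomato+ cTEC and 19.3, 19.1 and 11.9 CPM in tomato- mTEC, with at most 0.654 CPM in VEC, and was lower in tomato+ VEC, set against tomato+ cTEC (edgeR adjusted p = 0.00753, log2 fold change -4.21, SE 0.95). With all 12 libraries, edgeR called neither chain between the epithelial groups. Col22a1, a chain of tissue junctions, was at 0.183, 0 and 0.0866 CPM in tomato+ cTEC, against 3.09, 10.0 and 4.25 CPM in tomato- mTEC. With 3 counts over tomato+ cTEC, it was 59.2-fold lower there (edgeR adjusted p = 0.0466, with 95% counting bounds of 19.9 and 289.9 for the ratio). That call failed with edgeR without the low-count filter, and without tomato- VEC replicates 1, 2 or 3, or without tomato+ cTEC replicates 1, 2 or 3, or without tomato- mTEC replicates 1, 2 or 3 (edgeR adjusted p of 0.0306 to 0.134 over the 12 leave-outs).

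Col9a2 and Col9a1, of the cartilage collagen IX, were called lower in VEC than in TEC at low levels. Col9a2 was at 0, 0 and 0.433 CPM in tomato+ cTEC and 3.37, 3.95 and 2.48 CPM in tomato- mTEC, with 1 count over VEC. It was 88.3-fold lower in VEC (edgeR adjusted p = 0.0178, with 95% counting bounds of 15.5 and 3521 for the ratio). That call failed with DESeq2, and without tomato+ cTEC replicate 3 (edgeR adjusted p of 0.0151 to 1.00 over the 12 leave-outs), which leaves the tomato+ cTEC group at 0 counts. The higher level of Col9a2 in tomato- mTEC than in tomato+ cTEC, without overlap, was not called by edgeR (edgeR adjusted p = 0.169). It was called by limma voom and limma-trend (lowest adjusted p = 0.000824). Col9a1 was at 1.10, 1.37 and 0 CPM in tomato+ cTEC and 2.02, 0.349 and 0 CPM in tomato- mTEC, with 2 counts over VEC. It was 21.0-fold lower in VEC (edgeR adjusted p = 0.0478, with 95% counting bounds of 5.52 and 178 for the ratio), a call that failed with DESeq2, limma voom, edgeR without the low-count filter and limma-trend, and without tomato+ VEC replicates 1, 2 or 3, or without tomato- VEC replicates 1, 2 or 3, or without tomato+ cTEC replicates 1 or 2, or without tomato- mTEC replicates 1 or 2 (edgeR adjusted p of 0.0345 to 0.127 over the 12 leave-outs). Col16a1 did not pass 8.58 CPM and Col20a1 did not pass 5.21 CPM, and edgeR called neither in a comparison with all 12 libraries. In VEC against TEC, limma voom and limma-trend called Col16a1 (lowest adjusted p = 0.0302), as did edgeR without tomato+ VEC replicate 3 (edgeR adjusted p of 0.0227 to 0.418 over the 12 leave-outs).

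Chains of the epithelial attachment were present in both epithelial groups. Col7a1, of the anchoring fibril, was at 13.5, 14.6 and 4.07 CPM in tomato+ cTEC and 0.868, 6.98 and 5.21 CPM in tomato- mTEC. With 3 counts over tomato+ VEC, it was 93.1-fold lower there relative to tomato+ cTEC (edgeR adjusted p = 0.0117, with 95% counting bounds of 31.6 and 454 for the ratio). Col17a1, the transmembrane collagen of hemidesmosomes, was at 0.520, 1.70 and 1.82 CPM in tomato+ VEC and 0, 0 and 0.336 CPM in tomato- VEC, against 8.99, 29.2 and 8.49 CPM in tomato+ cTEC and 15.6, 13.0 and 10.0 CPM in tomato- mTEC. The tomato+ VEC libraries lay above the tomato- VEC libraries, which DESeq2 called (adjusted p = 0.0364) and edgeR did not (edgeR adjusted p = 0.201). Col17a1 was lower in VEC than in TEC (edgeR adjusted p = 0.000921, log2 fold change -5.11, SE 0.91). In tomato+ VEC against tomato+ cTEC it was called at the edge of the threshold (edgeR adjusted p = 0.0495, log2 fold change -3.52, SE 1.17), and the call failed with edgeR without the low-count filter, and without tomato+ VEC replicates 1, 2 or 3, or without tomato+ cTEC replicates 1, 2 or 3, or without tomato- mTEC replicates 1, 2 or 3 (edgeR adjusted p of 0.0232 to 0.188 over the 12 leave-outs).

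Col23a1, another transmembrane chain, was at 32.4, 6.27 and 5.80 CPM in tomato+ cTEC and 2.89, 11.0 and 0.721 CPM in tomato- mTEC, with at most 0.654 CPM in VEC. The gene was lower in tomato+ VEC, set against tomato+ cTEC (edgeR adjusted p = 0.0417, log2 fold change -5.66, SE 1.81), a call that failed without tomato+ VEC replicates 1, 2 or 3, or without tomato+ cTEC replicates 1, 2 or 3, or without tomato- mTEC replicate 1 (edgeR adjusted p of 0.0345 to 0.141 over the 12 leave-outs). Col13a1 did not pass 2.12 CPM and edgeR called it in no comparison with all 12 libraries. Col28a1, a chain known from peripheral nerve, was uneven, with 23.5, 0 and 6.00 CPM in tomato+ VEC and 0, 1.17 and 6.95 CPM in tomato- VEC, against 0.275, 0 and 0 CPM in tomato+ cTEC and 5.69, 0 and 0 CPM in tomato- mTEC, and edgeR called it in no comparison with all 12 libraries.

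Genes that make, crosslink, bind or degrade collagen were read from lists set beside the chains. Single calls were followed through the alternative fits and leave-outs for the chains only. How far the calls of list genes, some of them near the threshold, depend on the fit or on 1 library was not tested. Their counts stand against the shares of all genes called, which were 9.45% higher and 12.4% lower in tomato+ VEC relative to tomato+ cTEC. The shares were 2.73% higher and 5.1% lower in tomato+ cTEC relative to tomato- mTEC, and 14.4% higher and 21.8% lower in VEC relative to TEC. Of 20 tested genes of biosynthesis and folding, 4 were higher and 2 lower in tomato+ VEC relative to tomato+ cTEC, and 4 were higher in tomato+ cTEC relative to tomato- mTEC. Between VEC and TEC, 8 were higher and 1 lower. Median log2 fold changes of the list were 0.33 for tomato+ VEC over tomato+ cTEC and 0.92 for tomato+ cTEC over tomato- mTEC, against -0.11 and 0.02 over all genes. Plod1, a lysyl hydroxylase, was at 161, 114 and 105 CPM in tomato+ VEC, against 7.06, 3.04 and 3.72 CPM in tomato+ cTEC (edgeR adjusted p = 0.000314, log2 fold change 4.78, SE 0.66). P4ha3, an α subunit of prolyl 4-hydroxylase, was at 100.4, 81.0 and 76.2 CPM in tomato+ cTEC, against 2.02, 2.09 and 2.57 CPM in tomato- mTEC (edgeR adjusted p = 0.0148, log2 fold change 5.26, SE 1.09). With 1 count over tomato+ VEC, P4ha3 was 2283-fold lower there relative to tomato+ cTEC (edgeR adjusted p = 0.000327, with 95% counting bounds of 409 and 90190.2 for the ratio). P4ha2, another α subunit of that enzyme, was at 140, 43.7 and 59.8 CPM in tomato+ VEC, against 4.49, 23.4 and 3.81 CPM in tomato+ cTEC (edgeR adjusted p = 0.0214, log2 fold change 2.94, SE 0.81).

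Serpinh1, the collagen chaperone HSP47, was at 265, 287 and 264 CPM in tomato+ VEC, 121, 158 and 102 CPM in tomato+ cTEC and 29.2, 49.8 and 57.8 CPM in tomato- mTEC. Serpinh1 was higher in tomato+ VEC, set against tomato+ cTEC (edgeR adjusted p = 0.0187, log2 fold change 1.10, SE 0.29) and higher in tomato+ cTEC, set against tomato- mTEC (edgeR adjusted p = 0.0130, log2 fold change 1.47, SE 0.30). Fkbp10, a prolyl isomerase that works with it, was at 40.3, 41.3 and 43.8 CPM in tomato+ cTEC, against 4.53, 12.8 and 6.09 CPM in tomato- mTEC (edgeR adjusted p = 0.0287, log2 fold change 2.42, SE 0.59).

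Of 12 tested genes of propeptide processing and crosslinking, 2 were higher and 3 lower in tomato+ VEC relative to tomato+ cTEC, with a list median of -1.88 on the log2 scale, against -0.11 over all genes. Between VEC and TEC, 2 were higher and 5 lower. Pxdn, the peroxidase that crosslinks collagen IV, was at 243, 430.3 and 179.9 CPM in tomato+ VEC and 226, 172 and 268 CPM in tomato- VEC, against 12.3, 15.2 and 36.8 CPM in tomato+ cTEC and 56.3, 30.6 and 26.1 CPM in tomato- mTEC. The gene was higher in tomato+ VEC, set against tomato+ cTEC (edgeR adjusted p = 0.000314, log2 fold change 3.73, SE 0.51). Adamts2, which removes the N-propeptide of fibrillar collagens, was at 8.53, 9.11 and 13.0 CPM in tomato+ cTEC, and with 2 counts over tomato+ VEC it was 137-fold lower there (edgeR adjusted p = 0.00608, with 95% counting bounds of 37.6 and 1135 for the ratio). Between the VEC groups 1.65% of all genes were called. In these lists, with 20, 12, 8 and 7 tested genes, 1 gene was called. That gene was Loxl4, a lysyl oxidase, at 0, 0.131 and 0 CPM in tomato+ VEC, against 1.45, 16.5 and 11.0 CPM in tomato- VEC. With 1 count over tomato+ VEC, it was 259-fold lower there (edgeR adjusted p = 0.0475, with 95% counting bounds of 46.1 and 10271 for the ratio).

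Among 8 tested collagen receptors, 2 were higher and 1 lower in tomato+ VEC relative to tomato+ cTEC, and 2 were higher in tomato+ cTEC relative to tomato- mTEC. Between VEC and TEC, 3 were higher and 3 lower. Itga1, the α1 integrin that binds collagen IV, was at 268, 326 and 375 CPM in tomato+ VEC, 96.9, 78.4 and 89.4 CPM in tomato+ cTEC and 7.23, 2.33 and 22.1 CPM in tomato- mTEC. Itga1 was higher in tomato+ VEC, set against tomato+ cTEC (edgeR adjusted p = 0.0323, log2 fold change 1.87, SE 0.56) and higher in tomato+ cTEC, set against tomato- mTEC (edgeR adjusted p = 0.0106, log2 fold change 3.05, SE 0.59). Ddr1, the collagen receptor kinase of epithelia, was at 181, 107 and 102 CPM in tomato+ cTEC, and with 2 counts over tomato+ VEC it was 1723-fold lower there (edgeR adjusted p = 0.000119, with 95% counting bounds of 477 and 14228 for the ratio). Among 7 tested genes of degradation, 1 was higher and 3 lower in tomato+ VEC relative to tomato+ cTEC, 2 were higher in tomato+ cTEC relative to tomato- mTEC, and 2 were higher and 3 lower in VEC relative to TEC. Mmp2, a gelatinase that cuts collagen IV, was at 8.63, 7.32 and 11.5 CPM in tomato+ VEC, 131, 123 and 66.8 CPM in tomato+ cTEC and 7.52, 35.2 and 26.6 CPM in tomato- mTEC. The gene was lower in tomato+ VEC, set against tomato+ cTEC (edgeR adjusted p = 0.00118, log2 fold change -3.55, SE 0.59) and higher in tomato+ cTEC, set against tomato- mTEC (edgeR adjusted p = 0.0326, log2 fold change 2.21, SE 0.56).

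**Figure D5:**
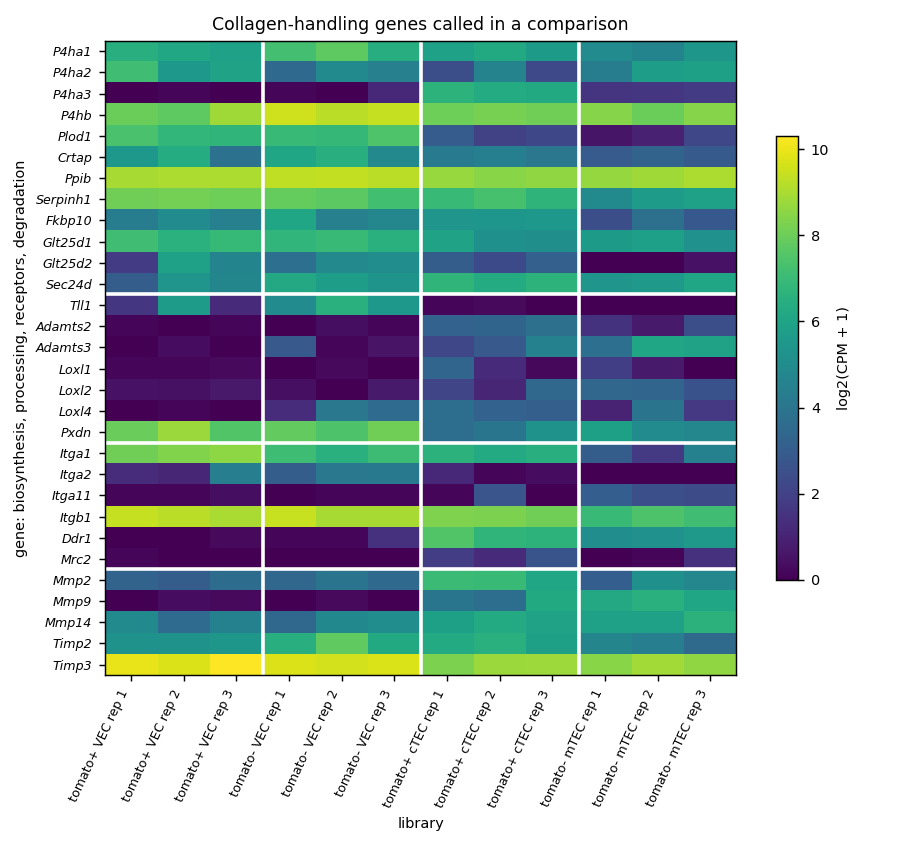
Heat map of log2(CPM + 1) for the 30 genes of the collagen-handling lists called in a comparison of the groups (rows, split by list with white lines) in the 12 libraries (columns). Plod1 and Pxdn are brighter in the 6 VEC libraries, P4ha3 in the 3 tomato+ cTEC libraries and Ddr1 in the 6 TEC libraries.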

How the data were processed

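Poly(A) RNA was turned into cDNA with the SMARTer Ultra Low kit, per the labels' protocols. TopHat2 2.0.10 and mm9 are named, per the submitters' processing notes, and neither a read counter nor an annotation is given in the sources used here. Whole-number read counts per symbol and library were deposited, per the file headers. The deposited RPKM values equal count over column total over 1 length per gene for all 180417 values above 0, within 1e-06.

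Counts were fitted with edgeR 4.0.16 (R 4.3.3): filterByExpr (minimum count 10, 14792 genes left), TMM scaling, a quasi-likelihood fit of all 12 libraries with a term per group (8 residual degrees of freedom, common dispersion 0.624) and Benjamini-Hochberg adjustment over all genes tested. SE was the fold change over the root of F. CPM values are TMM-normalised. Where the other group held clearly more, a fold with 0 counts in a group is a lower bound at 3 counts over the group. With 1 to 3 counts it is then a ratio with a 95% interval. Every library differed from its replicates beyond sampling noise. Values by library are given for chains called in a comparison or averaging at least 10 CPM in a group. For some of them, low VEC levels appear only as a highest value or a count, or are left out. Alternatives were DESeq2 1.42.0, voom and trend of limma 3.58.1, relative log expression scaling, no filter, only the groups compared, the replicate number as a block, and leaving out each library. Scripts were tested on simulated counts. Sequences come from RefSeq. The chains and lists were chosen with earlier results of these data known.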

Additional observations from a re-analysis of the deposited data

Results flagged for a closer look

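The difference between the VEC contrast (tomato+ VEC over tomato- VEC) and the TEC contrast (tomato+ cTEC over tomato- mTEC) was tested as an interaction term, and 3 of 36 chains (8.33%) passed, against 3.08% of all tested genes. In Col4a5 the log2 difference was -13.21 (edgeR adjusted p = 0.0255), a fitted value that depends on the prior count because tomato+ VEC held 0 counts. That call failed without tomato+ cTEC replicates 1 or 3, or without tomato- mTEC replicates 1, 2 or 3 (edgeR adjusted p of 0.00198 to 0.0768 over the 12 leave-outs). For Col6a5 it was 8.55 (SE 1.62, edgeR adjusted p = 0.0186), a call that failed without tomato+ cTEC replicate 1, or without tomato- mTEC replicate 2 (edgeR adjusted p of 0.0166 to 0.0618 over the 12 leave-outs). Col12a1 had a log2 difference of -4.92 (SE 1.16, edgeR adjusted p = 0.0430), a call that failed with limma voom, and without tomato+ VEC replicates 1, 2 or 3, or without tomato- VEC replicates 1 or 3, or without tomato+ cTEC replicates 1, 2 or 3, or without tomato- mTEC replicates 1, 2 or 3 (edgeR adjusted p of 0.00187 to 0.109 over the 12 leave-outs). In the TEC contrast the cortical or medullary gate changes with the reporter, so a difference between reporter effects cannot be told apart from a difference between cortex and medulla.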

How the results depend on the processing

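No called chain changed direction under any alternative run. Calls of 13 of 18 chains between tomato+ VEC and tomato+ cTEC, of 19 of 25 between VEC and TEC, of 1 of 4 between tomato+ cTEC and tomato- mTEC (Col6a5) and of 0 of 3 in the difference of contrasts were kept under every alternative and leave-out. Chains called between tomato+ VEC and tomato- VEC were 0, but 4 with DESeq2, 3 with limma voom, 1 without the filter and 1 with limma-trend (leave-outs 0 to 1). Between tomato+ cTEC and tomato- mTEC there were 4, but 9 with DESeq2, 13 with voom, 2 without the filter, 11 with only the groups compared and 15 with limma-trend (leave-outs 1 to 5). In the difference there were 3, but 5 with DESeq2, 7 with voom and 10 with limma-trend (leave-outs 0 to 3). The leave-outs gave 13 to 18 chains between tomato+ VEC and tomato+ cTEC and 20 to 26 between VEC and TEC. Over all genes, the VEC count of 244 became 1253 with DESeq2, 601 with voom, 112 with only the groups compared and 473 with limma-trend (leave-outs 180 to 413). The TEC count of 1158 became 1973, 2219, 2487 and 2530 in the same order (leave-outs 430 to 1325), and the count of 456 in the difference became 1418 with DESeq2, 1309 with voom and 1766 with limma-trend (leave-outs 163 to 541). The cause was not tested.

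No label states whether replicate numbers pair libraries across groups. Deviations correlated at -0.0136 to 0.0768 for the same number (18 pairs) and -0.0602 to 0.0286 for different numbers (36 pairs). The highest correlations were thus between libraries of the same number, and whether the numbers share a source was not tested. With the replicate number as a block, 2 chains were called between tomato+ cTEC and tomato- mTEC, 1 in the difference, 15 between tomato+ VEC and tomato+ cTEC, 21 between VEC and TEC and 0 between the VEC groups, and 269 genes in the difference over all genes. The calls not made with the block were those of Col2a1 and Col22a1 between tomato+ cTEC and tomato- mTEC, Col1a2, Col5a1 and Col17a1 between tomato+ VEC and tomato+ cTEC, Col1a1, Col1a2, Col9a1 and Col9a2 between VEC and TEC, and Col4a5 and Col12a1 in the difference. Of the 44 chains, 17 never reached 10 CPM in any library, and how far depth limits the results for them was not tested.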

Other observations

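Some collagen chains were uneven between libraries of the same group, most often in tomato- VEC. Of the 83 cases in which a chain had at least 20 counts in a library of a group, 18 (21.7%) had 0 or 1 count in another library of that group, against 13.1% over all genes. In tomato- VEC this held for 7 of 15 chains, Col4a3, Col4a5, Col12a1, Col13a1, Col16a1, Col20a1 and Col28a1. In tomato+ VEC it held for Col16a1 and Col28a1 among 8 chains. In tomato+ cTEC it held for 4 of 26 (Col8a1, Col15a1, Col20a1 and Col27a1), and in tomato- mTEC for 5 of 34 (Col8a2, Col9a1, Col11a1, Col20a1 and Col28a1).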
